A study of Homo sapiens with 44 samples.

Results

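Tumours grown from homozygous p300-truncated A549 cells (homo) were compared with tumours grown from the parental cells (WT), both grown as xenografts and taken at day 30. The comparison was set by the sample labels: 4 homo libraries (replicates 0, 1, 4 and 5) against 4 WT libraries (replicates 0, 1, 2 and 4), which is 8 of the 44 libraries of the study, and all genes with enough reads, which is 22533 of the 58721 genes counted. A549 is a human lung adenocarcinoma cell line. WT stands for the parental line, het1 and het2 for the heterozygous truncated lines, and homo for the homozygous truncated line; the labels describe the lines as isogenic and the edit as a truncation of the TAZ2 domain of p300. Day 30 tumours of het1 and het2 and cultured cells of the 4 lines served for further comparisons, and the WT and het1 tumours treated with vehicle or SAHA were not used here.

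The homozygous genotype is represented by a single named line, so an effect of the truncation and a property of the homo line cannot be told apart. The labels do not say that the replicates of a group came from separate animals. The p-values therefore measure the spread between these libraries. RNA was taken from the tumours and sequenced with a stranded poly(A) library kit, and neither the host strain nor how host reads were handled is given in the sources used here. In such bulk RNA, fewer cells of a type and less RNA per cell cannot be told apart.

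p300, encoded by EP300, and its paralog CBP, encoded by CREBBP, are coactivators that acetylate histones and other proteins at enhancers and promoters. They are brought to DNA by transcription factors that bind their small folded domains, and TAZ2 is one such domain, lying after the acetyltransferase domain and bound by many activators. A549 cells carry inactivating KEAP1 and STK11 mutations and lack CDKN2A. The KEAP1 defect leaves the stress factor NRF2 active, so NRF2 targets such as the aldo-keto reductases are abundant in this line.

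The WT tumour libraries held 80703091 to 94313744 reads assigned to genes and the homo libraries 63243289 to 84469968. Levels are given as CPM, the counts of a gene per 1e6 counts of the library, scaled for composition, and changes as the log2 fold change (log2FC) of homo against WT, fitted with edgeR. Means are given ± SD over the libraries of a group (n = 4 for each tumour group and n = 3 in culture). A change is called at an adjusted p under 0.05 over all genes tested. Across genes, log2 levels correlated at r = 0.994 to 0.996 between WT libraries, 0.991 to 0.994 between homo libraries, and 0.947 to 0.955 between a WT and a homo library. These coefficients describe genes within libraries and carry no test. As for the identity of the cells, CDKN2A had 0 counts in all 8 libraries, where a count of 0 allows up to 0.0320 to 0.0475 CPM in a single library by counting error alone. The epithelial keratins KRT8 and KRT18 stood at 3175 ± 47.9 and 2239 ± 69.4 CPM in WT and 2701 ± 139.8 and 1795 ± 121 CPM in homo tumours. The lung lineage factor NKX2-1 was near 0 in both, with 4 counts over the WT and 9 over the homo libraries.

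The edited gene itself was more abundant in homo tumours. EP300 stood at 91.4, 90.4, 90.2 and 82.9 CPM in the WT libraries and at 142, 144, 139 and 136 CPM in the homo libraries. Every homo library lay above every WT library, and EP300 rose by a log2FC of 0.66 (SE 0.09, edgeR adjusted p = 6.81e-06). Counts summed over the whole gene do not show where the transcript ends, so this level does not check the truncation. The paralog CREBBP stood at 108, 109.6, 113 and 102 CPM in WT and 95.5, 109, 95.4 and 96.7 CPM in homo tumours. Its groups overlapped, and its log2FC of -0.13 (SE 0.09) was not called (edgeR adjusted p = 0.264). With only the 8 libraries in the model the same CREBBP value was called (edgeR adjusted p = 0.047).

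The difference between the lines reached a large share of the transcriptome. Of 22533 genes tested, 12348 were called (54.8%), with 6098 raised (27.1%) and 6250 lowered (27.7%) in homo tumours. A change of 2-fold or more accompanied the call in 4511 genes, 2343 of them raised and 2168 lowered. The median log2FC over all genes was 0.01. The 4 homo values did not overlap the 4 WT values in 11726 genes, or 52% of those tested. Among the 11611 genes with a mean of at least 5 CPM, 29.1% were raised and 36.4% lowered. The counts of gene groups below have no such minimum and are to be read against the 27.1% and 27.7% over all genes. Groups of abundant genes are to be read against 29.1% and 36.4% as well. A group share near them is no result about that group.

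The greatest rises were from near silence to moderate levels, and a pair of them encode subunits of one channel. SCNN1B and SCNN1G encode the beta and gamma subunits of the epithelial sodium channel, which takes up sodium across epithelia. SCNN1B stood at 0.843, 0.397, 0.255 and 0.502 CPM in WT and 73.1, 64.7, 69.5 and 67.7 CPM in homo tumours, a log2FC of 7.10 (SE 0.26, edgeR adjusted p = 6.59e-12). SCNN1G had 2 counts over all 4 WT libraries and 58.7, 60.2, 65.2 and 67.2 CPM in the homo libraries. The ratio of the groups was 10830 with a 95% counting interval of 2998 to 89436. The alpha subunit SCNN1A, which the channel needs to conduct, fell from 16.5 ± 1.76 to 10.0 ± 1.62 CPM (log2FC -0.72, edgeR adjusted p = 0.00264). Of the 9 sodium channel subunit genes tested, 4 were raised and 5 lowered.

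MARCOL, a gene related to the scavenger receptor MARCO, stood at 0.229, 0.236, 0.209 and 0.278 CPM in WT and 42.1, 26.5, 46.5 and 31.4 CPM in homo tumours. It rose by a log2FC of 7.25 (SE 0.24, edgeR adjusted p = 2.54e-14). TMTC1, an endoplasmic reticulum protein of O-mannosylation, rose from 0.747 ± 0.293 to 51.4 ± 3.30 CPM. ELOVL4, which elongates very long chain fatty acids, rose from 0.238 ± 0.114 to 27.5 ± 6.38 CPM, and RIMS4, of a family of presynaptic active zone proteins, from 0.241 ± 0.0574 to 16.5 ± 2.25 CPM. COL14A1, a collagen that associates with fibrils, rose from 0.458 ± 0.172 to 29.9 ± 6.25 CPM and APOD, a lipocalin that carries lipids, from 0.429 ± 0.166 to 27.8 ± 7.29 CPM. The cancer-testis gene CT45A1 rose from 0.164 ± 0.0910 to 11.4 ± 1.17 CPM, a value that is uncertain because near-identical copies of the gene share its reads. MRC2, a receptor that takes up collagen, reached the highest level of these genes, 366, 489, 287 and 341 CPM in the homo libraries against 6.46, 7.40, 4.61 and 6.72 CPM in WT. These 10 genes were picked among those whose groups do not overlap, so the gap between the groups is part of the rule. Their fitted log2FC ran from 5.88 for MRC2 to 13.06 for SCNN1G.

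The greatest falls were of genes that WT tumours used and homo tumours left nearly silent. SLC26A3, an intestinal chloride and bicarbonate exchanger, stood at 53.3, 52.6, 57.0 and 43.4 CPM in the WT libraries and had 0 counts in all 4 homo libraries. It was at least 5014-fold lower when the homo group is set to 3 counts. OR51E1, a member of the olfactory receptor family that is used outside the nose, stood at 236, 293, 280.2 and 258 CPM in WT and 0.0793, 0.140, 0.140 and 0.110 CPM in homo tumours (log2FC -11.11, SE 0.57, edgeR adjusted p = 1.77e-09). Its neighbour on chromosome 11, OR51E2, fell from 32.8 ± 4.34 to 0.0122 ± 0.0165 CPM.

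Several of the other falls were of enzymes, carriers and regulators of liver and gut. ADH1C, an alcohol dehydrogenase, fell from 29.1 ± 7.23 to 0.0193 ± 0.0301 CPM. SLC15A1, the intestinal peptide transporter, fell from 12.9 ± 1.37 to 0.0594 ± 0.0662 CPM, and the vitamin B12 binding protein TCN1 from 114 ± 15.8 to 0.533 ± 0.236 CPM. Of the transcription factors, the forkhead gene FOXQ1 fell from 32.8 ± 3.20 to 0.0207 ± 0.0142 CPM, and MSC, a repressor of the basic helix-loop-helix family, from 11.0 ± 0.415 CPM to 2 counts over the 4 homo libraries. The falls, too, were picked among genes whose groups do not overlap.

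**Figure D1:**
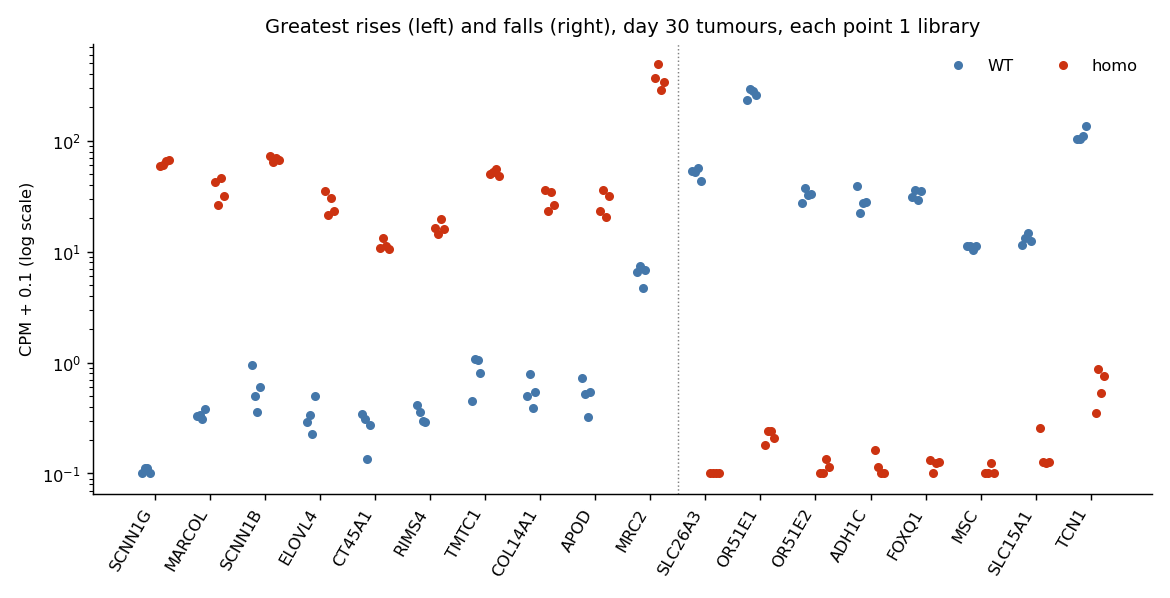
Levels of the 10 genes with the greatest rises and 8 of the 10 with the greatest falls among called genes whose groups do not overlap and whose mean is 5 CPM or more. The vertical axis is CPM plus 0.1 on a log scale, and each point is 1 of the 4 WT or 4 homo tumour libraries. The groups lie apart in every gene shown because the genes were picked so, and SLC26A3 has 0 counts in every homo library.

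Ranked by the amount of transcript rather than by ratio, the fibrinogen chains led the gains. FGA, FGB and FGG encode the alpha, beta and gamma chains of the clotting protein fibrinogen, which the liver secretes and which rises in the acute phase. The 3 genes lie in a cluster on chromosome 4, and their promoters are shown because the 3 moved together. In the 250 bases upstream of the RefSeq gene start (GRCh38.p14, 5′ to 3′ on the strand of each gene), capitals mark matches on either strand to CTGGGA, the core of the fibrinogen interleukin-6 response element. The spans are chr4:154590743-154590992 for FGA (minus strand), chr4:154562730-154562979 for FGB (plus strand) and chr4:154612657-154612906 for FGG (minus strand).
FGA: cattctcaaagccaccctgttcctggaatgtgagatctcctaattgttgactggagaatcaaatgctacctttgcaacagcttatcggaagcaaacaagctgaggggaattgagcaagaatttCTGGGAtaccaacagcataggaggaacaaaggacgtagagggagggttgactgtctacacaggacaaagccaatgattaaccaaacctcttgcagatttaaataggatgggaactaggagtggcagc
FGB: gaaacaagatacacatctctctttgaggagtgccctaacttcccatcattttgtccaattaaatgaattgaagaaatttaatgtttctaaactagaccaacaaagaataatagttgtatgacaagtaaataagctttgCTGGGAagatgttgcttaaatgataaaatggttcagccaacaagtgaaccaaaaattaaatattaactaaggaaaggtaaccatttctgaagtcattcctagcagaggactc
FGG: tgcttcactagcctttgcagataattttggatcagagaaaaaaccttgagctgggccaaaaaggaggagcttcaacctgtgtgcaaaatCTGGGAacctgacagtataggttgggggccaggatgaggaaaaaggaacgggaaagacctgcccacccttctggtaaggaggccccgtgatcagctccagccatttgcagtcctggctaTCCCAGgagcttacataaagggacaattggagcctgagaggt
CTGGGA was found in all 3 promoters, against 28.7% of the 35116 promoters of the table. The motif was picked after the rise of these genes was known, and a match is a description of the letters only.

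FGA stood at 1598, 1166, 1344 and 1065 CPM in the WT tumours and 6923, 6463, 6853 and 6275 CPM in the homo tumours. FGG stood at 1044, 736, 876 and 688 CPM in WT and 6032, 5175, 5990 and 5005 CPM in homo tumours. FGB stood at 1406, 1021, 1199 and 966 and 5412, 5244, 5532 and 4930 CPM. The lowest homo library was above the highest WT library for each chain, with log2FC of 2.36 (SE 0.12), 2.20 (SE 0.13) and 2.73 (SE 0.14) for FGA, FGB and FGG and edgeR adjusted p of 4.65e-12, 8.14e-11 and 2.72e-11. Summed, the 3 chains made up 3277 ± 592 CPM in WT and 17458 ± 1089 CPM in homo tumours (mean ± SD, n = 4). The same sum was 5253 ± 873 CPM in het1 and 15153 ± 1052 CPM in het2 tumours.

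The fibrinogen rise was not shared by most other plasma protein genes of the liver type. Of 26 members tested, the fibrinogen chains included, 6 were raised and 13 lowered, with a median log2FC of -0.80. Among them, the inter-alpha-trypsin inhibitor chain ITIH2 fell from 46.1 ± 3.72 to 2.36 ± 0.317 CPM and transferrin, TF, the iron carrier, from 32.8 ± 17.3 to 0.235 ± 0.236 CPM. The lipid carrier APOE rose from 2.23 ± 0.651 to 31.5 ± 1.96 CPM. SERPINA1, the main elastase inhibitor of plasma, fell from 702 ± 295 to 229.9 ± 107 CPM with wide spread in both groups. Of 20 complement genes 6 were raised and 11 lowered. The chaperone CLU rose from 556 ± 102 to 1364 ± 89.8 CPM and C4BPA, a brake on the classical pathway, fell from 22.4 ± 2.38 to 4.13 ± 0.637 CPM. Of the 19 serpins tested 2 were raised, among them the C1 inhibitor SERPING1 (1.63 ± 0.266 to 32.8 ± 2.77 CPM), and 13 lowered, among them the granzyme B inhibitor SERPINB9 (39.5 ± 3.30 to 16.2 ± 1.23 CPM).

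The other leading gains were secreted and surface proteins. NTS encodes neurotensin, a gut and brain peptide, and stood at 273, 229, 145 and 272 CPM in WT and 4456, 2829, 4321 and 3747 CPM in homo tumours (log2FC 4.06, SE 0.23, edgeR adjusted p = 1.52e-09). AGR2, a protein disulfide isomerase that helps mucins to fold, rose from 1691 ± 128 to 5060 ± 388 CPM. CEACAM6, a surface adhesion protein overexpressed in many carcinomas, was the most abundant of the gains at 4981, 7246, 7294 and 6908 CPM in WT and 9498, 13805, 7997 and 11370 CPM in homo tumours (log2FC 0.69, SE 0.15, edgeR adjusted p = 0.00104). The lowest homo library still lay above the highest WT library.

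The leading losses were of detoxifying enzymes, matrix and mucin. AKR1B10, an aldo-keto reductase that clears reactive aldehydes and is induced by NRF2, stood at 5297, 5575, 5815 and 5409 CPM in WT and 914, 1089, 895 and 1077 CPM in homo tumours (log2FC -2.47, SE 0.09, edgeR adjusted p = 9.40e-15). FN1, the matrix protein fibronectin, fell from 4335, 2416, 3082 and 2760 CPM to 71.5, 80.0, 62.6 and 73.3 CPM. MUC5AC, the gel-forming mucin of airway and stomach, fell from 2907 ± 571 to 257 ± 117 CPM. Cytoplasmic gamma-actin, ACTG1, fell from 6500 ± 132 to 4490 ± 192 CPM. The pseudogene EEF1A1P5 was lower too (8255, 7979, 8715 and 8460 CPM in WT and 5447, 5638, 5593 and 5675 CPM in homo tumours), a value that is uncertain since it shares reads with the elongation factor gene EEF1A1.

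**Figure D2:**
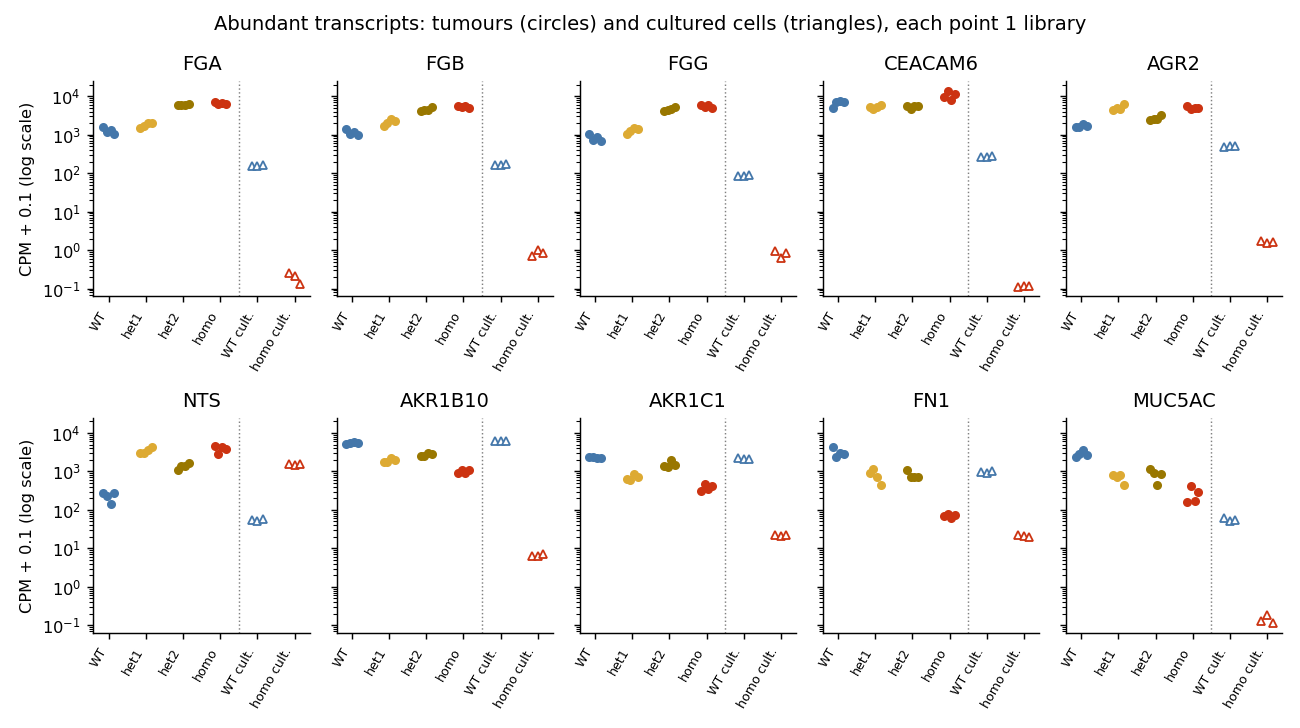
Levels of 10 abundant transcripts in day 30 tumours of the 4 lines (circles, 4 libraries each) and in cultured WT and homo cells (triangles, 3 libraries each), as CPM plus 0.1 on a log scale; tumour and culture levels were scaled within their own tables. The 3 fibrinogen chains, CEACAM6 and AGR2 lie higher in homo than in WT tumours but lower in homo than in WT cultured cells, while AKR1B10, AKR1C1, FN1 and MUC5AC lie lower in homo in both.

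NRF2 targets did not move as a group. NRF2 binds the antioxidant response element, whose core is TGACNNNGC, near genes for glutathione synthesis, thioredoxin and aldehyde clearance. Of the 30 members tested, 12 were raised and 15 lowered, with a median log2FC of -0.19. The aldo-keto reductases fell together: AKR1C1 from 2298 ± 83.6 to 390.0 ± 70.2 CPM, AKR1C2 from 2273 ± 60.8 to 750.0 ± 148 CPM and AKR1C3 from 1799 ± 47.9 to 404 ± 63.5 CPM. AKR1C1 and AKR1C2 are near-identical and can exchange reads. Summed with AKR1B10 the family made up 11894 ± 101 CPM in WT, 4911 ± 598 CPM in het1, 7644 ± 1118 CPM in het2 and 2538 ± 379 CPM in homo tumours (mean ± SD, n = 4).

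Other members lowered in homo tumours were ALDH3A1, an aldehyde dehydrogenase, from 573 ± 41.8 to 68.2 ± 6.90 CPM, EPHX1, the microsomal epoxide hydrolase, from 461 ± 45.2 to 117 ± 8.03 CPM, and SLC7A11, the cystine importer, from 423 ± 34.4 to 197 ± 16.8 CPM. TXNRD1, the cytosolic thioredoxin reductase, went the other way. It stood at 1868, 1971, 1777 and 1791 CPM in WT and 4216, 3329, 3762 and 3383 CPM in homo tumours (log2FC 0.99, SE 0.07, edgeR adjusted p = 4.29e-10). The glutathione peroxidase GPX2 was raised slightly, from 1087 ± 42.6 to 1282 ± 82.6 CPM. The quinone reductase NQO1, a standard readout of NRF2, stood at 1698 ± 32.7 and 1533 ± 136 CPM and was not called (edgeR adjusted p = 0.107). The core TGACNNNGC was found in the 250 upstream bases of 6 of the 21 listed genes with a RefSeq promoter (GCLM, TXNRD1, PGD, ME1, CBR1 and GPX2), against 10.9% of all promoters. That of TXNRD1, shown because this gene rose while other targets fell, holds 1 match (capitals; GRCh38.p14, chr12:104215529-104215778, plus strand, 5′ to 3′).
TXNRD1: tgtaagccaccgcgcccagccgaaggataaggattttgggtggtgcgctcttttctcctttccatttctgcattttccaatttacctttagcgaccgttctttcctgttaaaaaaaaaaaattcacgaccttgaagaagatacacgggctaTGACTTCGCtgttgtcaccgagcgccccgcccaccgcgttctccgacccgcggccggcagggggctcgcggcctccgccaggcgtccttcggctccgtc

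Epithelial genes were mostly lower in homo tumours. Of the 26 tested, 4 were raised and 17 lowered, with a median log2FC of -0.71. CDH1, the E-cadherin of epithelial junctions, stood at 412, 364, 385 and 379 CPM in WT and 93.4, 123, 115 and 112 CPM in homo tumours (log2FC -1.79, SE 0.09, edgeR adjusted p = 7.66e-13). KRT19, a keratin of simple epithelia, fell from 217 ± 19.0 to 11.7 ± 2.31 CPM, the serine protease inhibitor SPINT1 from 16.8 ± 1.55 to 2.05 ± 0.352 CPM and the tight junction protein MARVELD3 from 9.68 ± 0.456 to 1.28 ± 0.245 CPM. Of 11 claudins, the strand proteins of tight junctions, 1 was raised and 6 lowered. CLDN2, which forms pores for sodium and water, fell from 829.6 ± 114 to 11.6 ± 0.750 CPM, and CLDN10 from 2.26 ± 0.497 to 0.0996 ± 0.0533 CPM.

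Mucins and lineage factors fell with them. Of 16 mucins tested, 2 were raised (1 in 7 of the 8 models without 1 library) and 10 lowered. The membrane mucin MUC12 fell from 952 ± 115 to 43.1 ± 26.4 CPM, MUC17 from 10.3 ± 0.845 to 0.294 ± 0.153 CPM and MUC3A from 105 ± 2.44 to 34.9 ± 9.63 CPM; these 3 lie side by side on chromosome 7 and have similar repeats. Of 24 lung, gut and liver lineage transcription factors tested, 1 was raised and 19 lowered, with a median log2FC of -0.97. HNF4A, a master factor of liver and gut, fell from 145 ± 5.63 to 80.2 ± 10.7 CPM. The mitochondrial coactivator PPARGC1A fell from 27.8 ± 2.43 to 3.39 ± 0.705 CPM. The factor raised was the pioneer FOXA1, at 57.9, 56.2, 54.8 and 54.8 CPM in WT and 183, 173, 171 and 180.4 CPM in homo tumours (log2FC 1.66, SE 0.08, edgeR adjusted p = 1.34e-12).

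Mesenchymal genes moved in both directions, with a share raised near that over all genes. Of 22 mesenchymal genes tested, 6 were raised and 10 lowered; with only the 8 libraries in the model 10 were raised. ZEB1, a repressor of CDH1, rose from 25.9 ± 0.488 to 41.3 ± 2.51 CPM, TWIST1 from 0.686 ± 0.0488 to 3.35 ± 0.675 CPM and the fibronectin receptor chain ITGA5 from 20.0 ± 2.07 to 63.2 ± 3.84 CPM. Besides FN1, the proteoglycan versican, VCAN, fell from 585, 729.8, 637 and 698 CPM to 11.3, 9.80, 13.8 and 9.47 CPM. Of 22 collagens 6 were raised and 11 lowered. COL5A2, a chain of fibril-forming collagen V, rose from 173, 188, 163 and 184 CPM to 1037, 784, 872 and 831 CPM, and COL6A1 and COL6A2, chains of microfibrillar collagen VI, from 17.2 ± 3.48 to 102 ± 8.75 CPM and 10.4 ± 1.40 to 71.8 ± 9.04 CPM. The basement membrane chain COL4A6 fell from 26.0 ± 2.23 to 2.97 ± 0.478 CPM.

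Matrix receptors and laminins were raised somewhat more often than lowered. Of 22 integrins 13 were raised and 7 lowered. ITGB5 rose from 298 ± 15.4 to 688 ± 20.2 CPM and the collagen receptor chain ITGA11 fell from 49.6 ± 0.952 to 7.36 ± 0.888 CPM. The hyaluronan receptor CD44, listed with them, fell from 769.8 ± 43.5 to 254 ± 19.2 CPM. Of 16 laminin chains 8 were raised and 4 lowered: LAMC3 rose from 0.250 ± 0.0764 to 6.67 ± 0.532 CPM, and LAMA1 had 2 counts over the WT libraries and 1.48 ± 0.822 CPM in homo tumours. Of 22 proteases 6 were raised and 6 lowered, with MMP7, matrilysin, down from 124 ± 20.9 to 5.11 ± 2.08 CPM, ADAMTS1 down from 7.66 ± 1.26 to 1.77 ± 0.172 CPM and the lysosomal cathepsin CTSL up from 306 ± 20.5 to 891 ± 149 CPM.

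Antigen presentation genes were higher in homo tumours. Class I molecules show peptides from the cell's own proteins to CD8+ T cells, and class II molecules show peptides to CD4+ T cells and are usually limited to immune cells unless induced through CIITA. Of 15 class I genes tested, 12 were raised and 2 lowered, with a median log2FC of 0.61. The peptide transporter TAP2 rose from 7.18 ± 0.509 to 18.1 ± 1.16 CPM, the immunoproteasome subunit PSMB9 from 3.97 ± 0.468 to 9.83 ± 0.871 CPM and HLA-C from 67.6 ± 6.77 to 150.3 ± 20.5 CPM. Of 11 class II genes tested, 9 were raised and 1 lowered, with a median log2FC of 3.44. HLA-DRA, also on that list, was not among the genes tested. HLA-DMA, which loads peptide onto class II, stood at 17.5, 14.2, 14.6 and 14.9 CPM in WT and 142, 141, 136 and 148 CPM in homo tumours (log2FC 3.21, SE 0.09, edgeR adjusted p = 6.27e-16). HLA-DPA1 had 8 counts over the WT libraries and 9.00, 9.35, 8.88 and 8.29 CPM in the homo libraries. HLA-DRB1 was at 0.187 ± 0.0476 and 4.56 ± 0.728 CPM and the invariant chain CD74 at 0.0467 ± 0.00300 and 0.519 ± 0.159 CPM, so these stayed low in both. CIITA stood at 0.337 ± 0.114 and 0.646 ± 0.248 CPM; it was called (edgeR adjusted p = 0.0228), but with overlapping groups, and the call was lost without WT replicate 0 or 1 or homo replicate 1 or 4 (edgeR adjusted p 0.0503 to 0.0892). HLA genes differ little in sequence, and the counting could split their reads.

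Interferon-stimulated genes as a list lay at the background, with 8 of 31 raised and 8 lowered. The count raised was 5 without WT replicate 1 or homo replicate 1, and 14 with only the 8 libraries in the model. The antiviral sensor OAS1 fell from 152 ± 13.3 to 49.3 ± 3.58 CPM and IFIT2 from 10.5 ± 0.933 to 3.27 ± 0.645 CPM, while IFITM2 rose from 45.4 ± 8.79 to 77.7 ± 4.17 CPM. NF-kB targets and chemokines were mostly lower, with 5 of 21 raised, 14 lowered and a median log2FC of -1.26. CXCL5, which draws neutrophils, stood at 590.4, 820.4, 707 and 752 CPM in WT and 36.7, 47.2, 44.5 and 49.4 CPM in homo tumours (log2FC -4.01, SE 0.26, edgeR adjusted p = 1.31e-08). The related CXCL3 fell from 5.77 ± 0.691 to 0.886 ± 0.173 CPM and CX3CL1, the membrane-bound chemokine fractalkine, from 9.67 ± 2.64 to 0.165 ± 0.0930 CPM. NFKB2, which encodes p100 of the alternative NF-kB pathway, rose from 40.2 ± 1.92 to 64.6 ± 4.11 CPM.

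Hypoxia and glycolysis genes were mostly lower. The hypoxia-inducible factors pair an alpha subunit that is stable at low oxygen with ARNT, and use p300 and CBP as coactivators through another domain, TAZ1. Of 34 genes tested, 4 were raised and 22 lowered, with a median log2FC of -0.53. CA9 and CA12 encode surface carbonic anhydrases that balance acid. CA12 stood at 1567, 1284, 1393 and 1273 CPM in WT and 57.4 ± 10.7 CPM in homo tumours (log2FC -4.59, SE 0.14, edgeR adjusted p = 3.33e-14). CA9, a standard marker of hypoxia, stood at 66.5, 39.0, 49.1 and 43.7 CPM in WT and 1.35, 6.69, 2.26 and 3.82 CPM in homo tumours, without overlap. PFKFB3, which drives glycolysis, fell from 232 ± 29.0 to 52.3 ± 6.15 CPM, the repressor BHLHE40 from 199 ± 18.2 to 88.3 ± 9.97 CPM and phosphoglycerate kinase, PGK1, from 1089 ± 52.2 to 623 ± 68.3 CPM. Among the HIF subunits and the CITED proteins, which compete for TAZ1, 2 of 11 were raised and 4 lowered. EPAS1, the HIF-2 alpha subunit, rose from 237 ± 12.5 to 468 ± 30.5 CPM and ARNT2, a relative of ARNT, fell from 38.8 ± 2.60 to 11.6 ± 0.940 CPM.

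Most genes for enzymes of alcohol and drug metabolism were also lower, but not the most abundant of them. Of 22 aldehyde and alcohol dehydrogenases 3 were raised and 18 lowered, with a median log2FC of -0.76. Their summed level was higher in homo, at 14263 to 15698 CPM against 12120 to 13411 CPM in WT. The retinal dehydrogenase ALDH1A1 made up most of it and rose from 10358 ± 571 to 13596 ± 686 CPM. ADH6 fell from 40.3 ± 6.99 to 0.562 ± 0.244 CPM and the mitochondrial acetaldehyde oxidiser ALDH2 from 115 ± 4.95 to 36.4 ± 6.98 CPM, while ALDH1A2, which makes retinoic acid, rose from 0.202 ± 0.160 to 10.9 ± 5.54 CPM. Of 28 drug enzymes and ABC transporters 7 were raised and 15 lowered, with the carboxylesterase CES1 down from 168 ± 28.8 to 5.01 ± 0.769 CPM and CYP1B1 down from 9.66 ± 1.05 to 2.07 ± 0.423 CPM. Cholesterol synthesis genes leaned the other way, with 16 of 27 raised and 3 lowered. SREBF1, a regulator of lipid synthesis, rose from 83.0 ± 4.49 to 159.6 ± 11.8 CPM, while ACLY, which supplies cytosolic acetyl-CoA, fell from 801 ± 30.8 to 412 ± 6.96 CPM.

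Genes of the unfolded protein response and of ATF4 had 7 of 21 raised and 7 lowered. This lies near the shares over all genes, 27.1% and 27.7%, though single members moved both ways. Those raised included PDIA4 from 448 ± 18.6 to 1031 ± 25.4 CPM, HSPA5, the main chaperone of the endoplasmic reticulum, from 824 ± 54.8 to 1555 ± 127 CPM, and XBP1, the factor spliced by IRE1, from 336, 283, 289 and 316 CPM to 829, 783, 731 and 761 CPM. Those lowered included targets of ATF4, the factor of amino acid stress, such as the pseudokinase TRIB3 from 47.8 ± 1.66 to 11.1 ± 1.65 CPM and the receptor VLDLR from 52.1 ± 1.69 to 7.00 ± 1.66 CPM.

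Proliferation genes changed little as a list. Of 34 cell cycle genes tested, 4 were raised and 5 lowered, both under the share over all genes, with a median log2FC of -0.01. The count lowered was 9 without WT replicate 0, 8 without homo replicate 0, and 3 without WT replicate 1 or homo replicate 1 or 5. MKI67, the proliferation marker Ki-67, stood at 205, 270.2, 237 and 234 CPM in WT and 212, 172, 198 and 179 CPM in homo tumours. The groups overlapped, and its log2FC of -0.32 was called (edgeR adjusted p = 0.0196) but not without WT replicate 1 or homo replicate 1 or 5 (edgeR adjusted p 0.0541 to 0.0697), with no filter on low counts (0.0675) or with the replicate number as a block (0.0885). Among the named genes, cyclin D1, CCND1, rose from 358 ± 29.4 to 636 ± 41.1 CPM and cyclin E1, CCNE1, from 12.7 ± 0.727 to 22.1 ± 3.25 CPM, while cyclin D3, CCND3, fell from 182 ± 11.9 to 68.7 ± 4.91 CPM and the kinase CDK6 from 100.5 ± 13.6 to 27.2 ± 3.03 CPM. The inhibitor CDKN1A rose from 28.2 ± 0.505 to 51.0 ± 3.41 CPM and CDKN1B fell from 132 ± 6.39 to 69.7 ± 4.65 CPM; in all, 4 of 6 tested inhibitors were raised and 1 lowered, but 1 was raised without WT replicate 1 and 2 without WT replicate 4 or homo replicate 1. Of 20 MYC and ribosome biogenesis genes 4 were raised (2 without homo replicate 0) and 6 lowered, among them CAD, of pyrimidine synthesis, from 149.8 ± 3.44 to 118 ± 5.03 CPM.

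EGFR and ERBB3, receptors of epidermal growth factors, fell, while 3 feedback genes of the ERK kinases rose. EGFR stood at 238, 233, 244 and 209 CPM in WT and 48.7, 70.2, 50.8 and 61.9 CPM in homo tumours (4.00-fold lower, SE of the log2FC 0.13, edgeR adjusted p = 2.46e-09), and its partner ERBB3 fell from 305 ± 7.55 to 57.7 ± 17.1 CPM. The phosphatases DUSP6 and DUSP4, which ERK induces and which switch it off, rose from 20.1 ± 1.51 to 63.2 ± 11.0 CPM and from 398 ± 19.8 to 669 ± 31.7 CPM, and the ERK-induced factor ETV5 from 37.9 ± 1.45 to 66.3 ± 3.77 CPM. In that list of 25 genes, 13 were raised and 9 lowered. Of 23 further receptor tyrosine kinases 7 were raised and 11 lowered. NTRK3, the neurotrophin-3 receptor, fell from 134, 107, 104 and 111 CPM to 0.650, 0.783, 0.829 and 0.828 CPM, whereas KIT, the stem cell factor receptor, rose from 1.59 ± 0.611 to 24.9 ± 6.26 CPM and ROR2, a WNT5A receptor, from 0.111 ± 0.0766 to 2.10 ± 0.356 CPM.

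Counts in other signalling lists are to be read against the 27.1% raised and 27.7% lowered over all genes, and single members moved both ways. Of 32 WNT pathway genes 11 were raised and 13 lowered, and the pathway's feedback targets RNF43 and AXIN2 fell from 33.0 ± 1.51 to 2.07 ± 0.496 CPM and from 21.6 ± 1.90 to 3.80 ± 0.995 CPM. In the TGF-beta, activin and BMP list 11 of 33 were raised and 13 lowered, with the ligand BMP6 down from 57.3 ± 3.33 to 16.6 ± 0.491 CPM and the inhibitor SMAD6 down from 45.3 ± 3.44 to 19.1 ± 0.827 CPM. Of 20 Notch genes 5 were raised (3 without WT replicate 2) and 10 lowered: NOTCH1 fell from 35.0 ± 1.30 to 13.4 ± 1.27 CPM and the coactivator MAML2 from 19.6 ± 1.09 to 3.64 ± 0.418 CPM. Of 19 Eph genes 4 were raised and 8 lowered, with the receptor EPHA5 up from 0.169 ± 0.101 to 5.18 ± 1.46 CPM. YAP targets counted 6 raised and 9 lowered of 18, with CRIM1 up from 262 ± 23.2 to 598 ± 43.8 CPM and the pathway kinase LATS2 up from 34.6 ± 1.34 to 74.4 ± 4.69 CPM. Of 22 p53 targets 9 were raised and 6 lowered, with the death receptor TNFRSF10B up from 127 ± 4.72 to 202 ± 5.66 CPM and the oxidoreductase TP53I3 down from 93.1 ± 6.83 to 59.2 ± 1.04 CPM.

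More of the neuroendocrine genes tested were raised than lowered in homo tumours, with 8 of 14 raised, 3 lowered and a median log2FC of 1.31. INSM1, PCSK2 and GRP, also on that list, were not among the genes tested. Granins are acidic proteins of hormone granules. CHGB, secretogranin-1, stood at 166, 100.1, 123 and 114 CPM in WT and 2474, 2447, 2059 and 2122 CPM in homo tumours (log2FC 4.18, SE 0.19, edgeR adjusted p = 4.52e-11). SYP, of synaptic vesicles, rose from 1.75 ± 0.187 to 12.9 ± 1.80 CPM, CHGA from 0.489 ± 0.195 to 3.34 ± 0.322 CPM and SCG3 from 0.0373 ± 0.0231 to 1.39 ± 0.220 CPM. Of 23 ion channel genes 8 were raised and 10 lowered, with the calcium channel subunit CACNA2D1 up from 36.2 ± 4.02 to 338 ± 34.6 CPM. Of 19 protocadherins 7 were raised and 3 lowered, with PCDH9 up from 70.5 ± 3.66 to 262 ± 19.3 CPM. Of the 24 acetyltransferases and deacetylases 10 were raised and 3 lowered: besides EP300, the nuclear receptor coactivator NCOA3 rose from 169 ± 3.00 to 267 ± 23.1 CPM and the class IIa deacetylase HDAC7 fell from 56.2 ± 2.30 to 29.5 ± 3.49 CPM. Of 14 stem cell associated genes 3 were raised and 9 lowered.

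**Figure D3:**
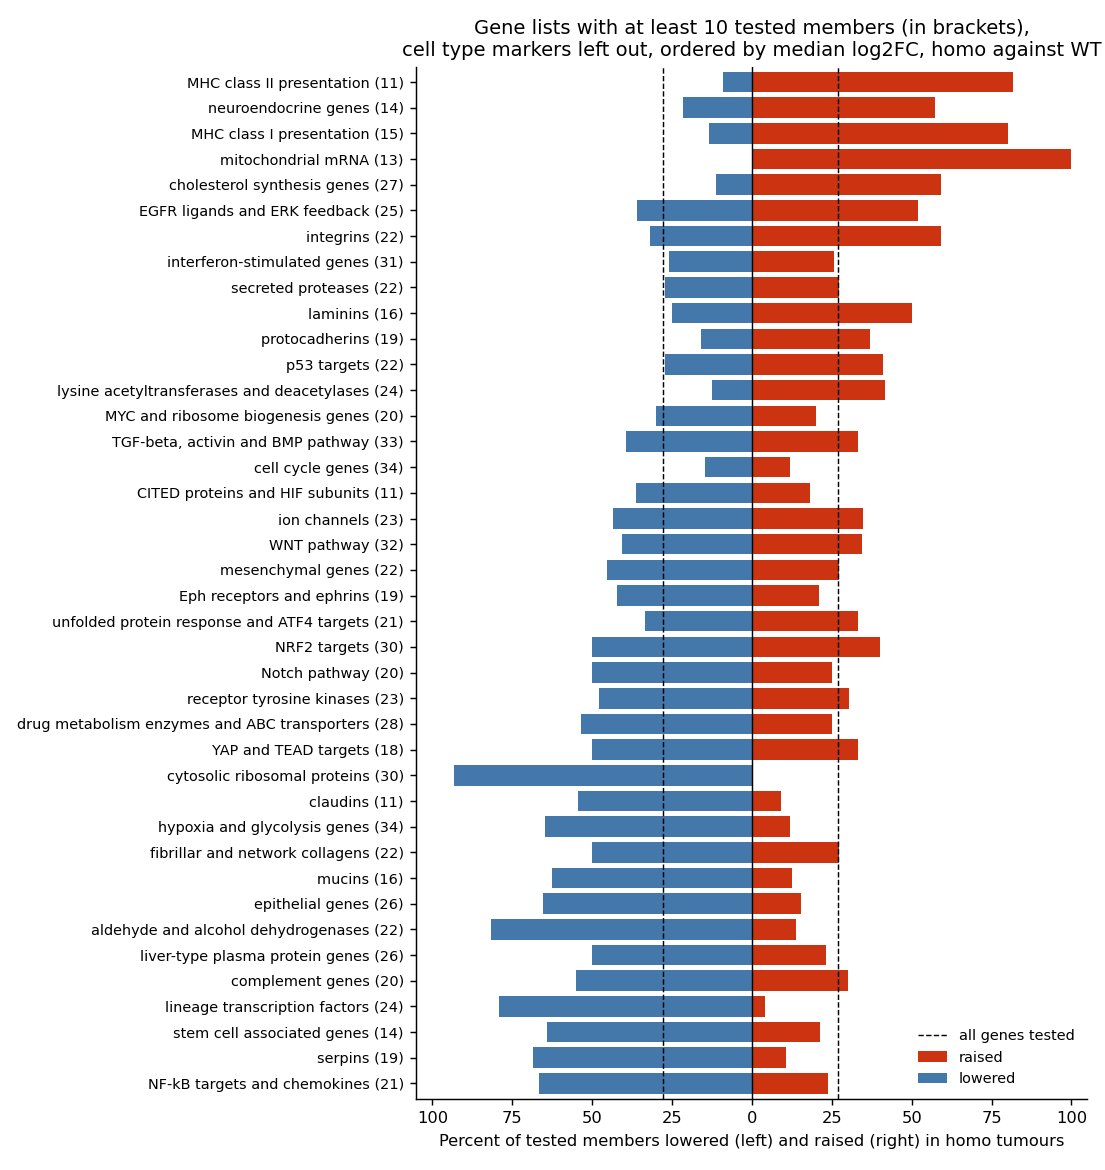
Share of tested members raised (right) and lowered (left) in homo tumours for each gene list with at least 10 tested members, cell type markers left out, in percent, ordered by median log2FC, with dashed lines at the shares over all 22533 genes (27.1% and 27.7%). The MHC class II, neuroendocrine and MHC class I lists stand at the top and the NF-kB list, with 14 of 21 lowered, at the bottom.

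Markers of other cell types were measured beside these lists, since xenografts hold host cells. Of 11 fibroblast markers 6 were raised and 1 lowered, and their summed level was 231 to 378 CPM in WT and 335 to 510.0 CPM in homo libraries; COL1A1 held most of it and was not called (167 ± 44.6 and 222 ± 40.6 CPM), and THY1 rose from 0.0208 ± 0.0268 to 1.99 ± 0.776 CPM. Of 9 tested endothelial markers 6 were raised and 1 lowered, with a summed level of 13.3 to 14.9 against 63.2 to 80.0 CPM. EGFL7 made up most of that sum at 10.7 ± 1.13 and 65.6 ± 6.48 CPM and is also present in culture (13.4 ± 0.561 and 29.0 ± 1.32 CPM). The defining endothelial genes CDH5 and PECAM1 stood at 0.118 ± 0.0940 and 1.56 ± 0.272 CPM in WT and 0.976 ± 0.335 and 0.966 ± 0.260 CPM in homo tumours, and VWF, EMCN and ROBO4 were too low to test. PECAM1 lost its call in 7 of 8 models that left out 1 library (edgeR adjusted p up to 0.132).

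CD68, TYROBP, FCER1G, C1QA, C1QB and CD163 of the myeloid list were not among the genes tested. Of 6 tested myeloid markers 3 were raised and 1 lowered, and the whole list had a summed level of 32.8 to 46.2 against 17.4 to 20.7 CPM. Most of it was lysozyme, LYZ, which epithelial cells also make, at 31.5 ± 6.30 and 9.06 ± 1.37 CPM, and the defining leukocyte gene PTPRC stood at 0.268 ± 0.0642 and 0.595 ± 0.114 CPM. Neither of 2 tested erythroid markers was called, with HBB at 1.87 ± 0.591 and 1.40 ± 0.223 CPM. Skeletal muscle markers summed to 7.24 to 53.6 in WT and 7.04 to 61.6 CPM in homo libraries, with 1 of 11 raised and 1 lowered. Of 4 tested adipocyte markers 3 were raised and 1, CIDEC, lowered, but ADIPOQ, FABP4 and LEP were not among the genes tested. Of 6 tested keratinocyte markers 1 was raised and 5 lowered, with KRT6A at 56.6 ± 11.2 and 0.412 ± 0.0388 CPM. KRT1, DSG1 and LOR were not tested. The part of host cells in the changes of matrix, class II and chemokine genes was not tested.

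RNA composition also differed between homo and WT tumours. The 13 mitochondrial mRNAs were all raised, with a median log2FC of 0.56, MT-CO2 of respiratory complex IV from 1225 ± 113 to 2147 ± 179 CPM, and mitochondrial reads made up 2.49% to 2.78% of WT and 3.57% to 4.27% of homo libraries. Of 30 cytosolic ribosomal protein genes none was raised and 28 were lowered, with a median log2FC of -0.37, RPLP0 from 1823 ± 26.7 to 1171 ± 55.7 CPM. The mitochondrial share varied within a line too, at 2.26% to 3.78% in het1 tumours, and was 1.92% to 2.25% in het2 tumours. The part of RNA quality in other changes was not tested.

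The same contrast was then set beside cultured cells of the WT and homo lines (3 libraries each), which share no library with the tumours. In culture 15293 of 21704 genes were called (70.5%), with 35.4% raised and 35.1% lowered. Over the 20581 genes tested in both, the log2FC of tumours and culture correlated at r = 0.60 (Spearman 0.43) across genes, which are not independent replicates. Of 9178 genes called in both, 3376 were raised in both, 3336 lowered in both, 1226 raised in tumours and lowered in culture, and 1240 the reverse. In a joint model of the 28 tumour and culture libraries the difference of the 2 contrasts was called in 11898 of 24227 genes (49.1%), 6957 with a greater and 4941 with a smaller log2FC in tumours. With RLE scaling these counts were 6197 and 5453, with DESeq2 6322 and 5678, and with no filter on low counts 5887 and 5089. The median difference was 0.10, so single values are to be read against that shift.

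Several of the leading gains in tumours were losses in culture. FGA stood at 155 ± 3.69 CPM in cultured WT and 0.0993 ± 0.0613 CPM in cultured homo cells, a difference between tumour and culture log2FC of 12.98 (SE 0.27, edgeR adjusted p = 5.43e-22). The other fibrinogen chains did the same, and the 3 summed to 407 ± 13.9 CPM in WT and 1.57 ± 0.0358 CPM in homo culture (mean ± SD, n = 3). CEACAM6 stood at 272 ± 10.0 CPM in WT culture and had 3 counts over the 3 homo cultures, a ratio of 18737 (95% counting interval 6411 to 90861), against its rise in tumours. AGR2 stood at 504 ± 15.8 and 1.54 ± 0.121 CPM in culture. HNF4A, which fell in tumours too, stood at 70.9 ± 1.81 and 0.146 ± 0.0426 CPM in culture. SCEL, a protein of the cornified envelope, had 8.22 ± 0.809 CPM in WT culture and 0 counts in homo culture, and 30.2 ± 6.17 and 44.6 ± 8.08 CPM in tumours. Its rise in tumours was not called without WT replicate 0 or 4 or homo replicate 0 or 4 (edgeR adjusted p 0.0503 to 0.093). The keratin KRT4 stood at 47.8 ± 2.38 and 0.0286 ± 0.0127 CPM in culture and 6.51 ± 1.16 and 10.6 ± 2.41 CPM in tumours. The annexin ANXA13, absent from homo culture with 0 counts against 36.1 ± 1.43 CPM, fell in tumours from 195 ± 20.4 to 29.1 ± 2.52 CPM.

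The most negative differences were of 2 kinds, falls in tumours without one in culture and rises in culture without one in tumours. AQP1, the water channel, stood at 105, 95.5, 77.6 and 113 CPM in WT and 0.523, 0.936, 0.315 and 0.469 CPM in homo tumours, and at 0.0926 ± 0.106 and 0.134 ± 0.0418 CPM in culture (difference -7.77, SE 1.03, edgeR adjusted p = 1.05e-06). SLC26A3, which fell in tumours, was near 0 in both cultured lines. POSTN, the matrix protein periostin, had 0 counts in WT culture and 24.9 ± 1.32 CPM in homo culture, and stood at 3.01 ± 0.635 and 4.65 ± 1.10 CPM in tumours, where it was not called. The clock repressor BHLHE41 was likewise high in homo culture only (0.0768 ± 0.0172 and 43.6 ± 1.53 CPM) and not called in tumours (2.51 ± 0.533 and 2.93 ± 0.352 CPM). With a call and 2-fold change in both settings and a mean of at least 5 CPM in tumours, 43 genes were raised in tumours and lowered in culture, and 42 were lowered in tumours and raised in culture.

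Among the lists, the cell cycle genes gave 3 raised and 27 lowered of 33 in culture against 4 and 5 of 34 in tumours. MYC and ribosome biogenesis genes gave 0 raised and 17 lowered of 19 in culture against 4 and 6 of 20. NF-kB targets and chemokines gave 10 raised and 6 lowered of 17 in culture against 5 and 14 of 21. The NRF2 list gave 4 raised and 23 lowered of 30 in culture (median log2FC -0.88) against 12 and 15. Its aldo-keto reductases fell further in culture, where the sum of AKR1B10 and AKR1C1 to AKR1C3 was 13972 ± 181 CPM in WT and 56.1 ± 0.658 CPM in homo cells. The differences between these counts were not tested as such.

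**Figure D4:**
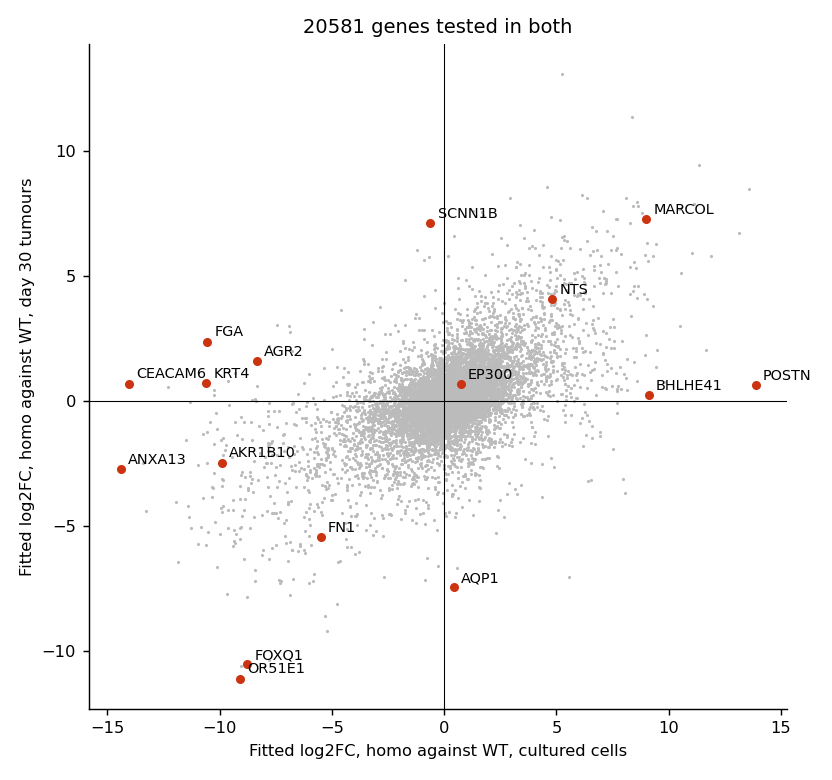
Fitted log2FC of homo against WT in cultured cells (horizontal) and day 30 tumours (vertical) for the 20581 genes tested in both, each grey point 1 gene, with named genes in red. FGA, AGR2, CEACAM6 and KRT4 lie to the left of the vertical line and above the horizontal one, and AQP1 lies near 0 in culture and at -7.46 in tumours; fitted values of genes with almost no counts in a group depend on the model's prior count.

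Homo tumours were also set against tumours of the heterozygous lines het1 and het2. Against the mean of het1 and het2, 10080 of 22533 genes were called (44.7%), 4976 higher and 5104 lower in homo. These values share the homo libraries with the comparison to WT, so the levels are given side by side. MARCOL stood at 0.236 ± 0.0887 CPM in het1 and 1.03 ± 0.212 CPM in het2, with the het1 mean inside the WT range and both means far under homo (homo minus het log2FC 6.21, SE 0.16, edgeR adjusted p = 1.39e-14). TMTC1 stood at 0.228 ± 0.132 and 11.7 ± 2.02 CPM. GUCY1A2, a subunit of the nitric oxide receptor, was at 0.228 ± 0.134 CPM in WT, 0.0401 ± 0.0247 in het1, 9.47 ± 1.19 in het2 and 10.5 ± 4.31 CPM in homo tumours. B4GALNT2, a glycosyltransferase, was at 1.29 ± 0.550, 1.79 ± 0.743, 21.6 ± 7.99 and 70.8 ± 14.3 CPM in the same order. The imprinted gene PEG10 was at 204 ± 7.02, 774 ± 23.3, 3.72 ± 0.692 and 521 ± 144 CPM, so its difference from the het mean came from het2.

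Of the genes lowest in homo against the het lines, OR51E1 stood at 2.32 ± 0.839 CPM in het1 and 35.8 ± 20.6 CPM in het2 (homo minus het log2FC -6.24, SE 0.60, edgeR adjusted p = 2.45e-06), between WT and homo. TCN1 was graded alike, at 8.93 ± 3.01 and 24.7 ± 3.59 CPM. ANKRD30A, the breast differentiation antigen NY-BR-1, was at 1.88 ± 0.196 CPM in WT, 16.3 ± 1.02 in het1, 0.0436 ± 0.0252 in het2 and 0.0167 ± 0.0121 CPM in homo, the long noncoding RNA LNCAROD at 4.76 ± 0.372, 17.9 ± 5.42, 2.88 ± 0.505 and 0.156 ± 0.124 CPM, and the kainate receptor subunit GRIK2 at 0.919 ± 0.187, 22.8 ± 1.03, 0.435 ± 0.153 and 0.124 ± 0.0330 CPM, each highest in het1. Some of the leading changes against WT were seen, in full or in part, in the het lines as well. SCNN1B stood at 69.8 ± 11.2 CPM in het1 and 11.8 ± 2.70 CPM in het2, and MRC2 at 72.9 ± 1.39 and 124 ± 36.4 CPM. FN1 stood at 797 ± 296 and 807 ± 175 CPM, between WT and homo, and SLC26A3 at 0.0187 ± 0.0202 and 0.291 ± 0.0982 CPM. EP300 stood at 102 ± 7.07 CPM in het1 and 105 ± 19.8 CPM in het2, under homo (homo minus het log2FC 0.43, edgeR adjusted p = 1.98e-04), and CREBBP at 65.5 ± 5.32 and 89.4 ± 16.0 CPM. In het1 and het2, CA9 stood at 59.3 ± 6.94 and 65.0 ± 14.0 CPM and PFKFB3 at 259.9 ± 41.1 and 148 ± 14.3 CPM.

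By position, chromosome 13 had the highest median of all nuclear chromosomes, given here as a description with no test. Of 423 genes tested there, 240 were raised (56.7%) and 53 lowered (12.5%), with a median log2FC of 0.45, or 1.37-fold. The medians of the other autosomes and chromosome X ran from -0.12 to 0.10, with 19.0% to 31.7% of their genes raised. Single libraries were described by another measure, on genes with a mean of at least 5 CPM in tumours, 207 of them on chromosome 13. The median log2 level against the WT mean was taken, less the library's median over all such genes. For chromosome 13 this median was 0.53, 0.50, 0.51 and 0.48 in the homo tumours. It was 0.00 to 0.02 in het1, 0.06 to 0.08 in het2 and, against WT culture, 0.11 to 0.14 in homo culture. The rise ran along the whole chromosome: all 8 windows of 50 neighbouring genes had medians of 0.26 to 0.60, while the 428 windows of other chromosomes ran from -0.68 to 0.48. Against the het tumours the median log2FC of chromosome 13 was 0.41. Its median difference between tumours and culture was 0.49, against 0.10 over all genes and 0.01 to 0.20 for the other autosomes and chromosome X. The het lines had other chromosomes off the WT level, in both directions. Library medians, taken in the same way, were 0.27 to 0.29 for chromosome 7 and 0.25 for chromosome 12 in het1. In het2 they were 0.28 to 0.32 for chromosome 9, -0.34 to -0.30 for chromosome 7 and -0.37 to -0.29 for chromosome 10. Chromosome 10 stood at -0.17 to -0.13 in the homo tumours. DNA copy number was not measured.

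**Figure D5:**
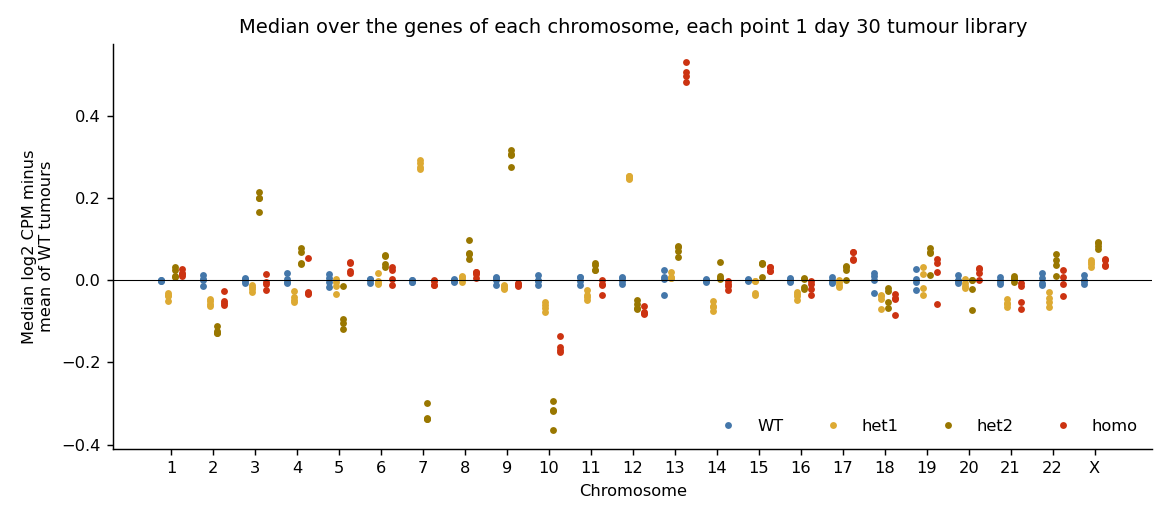
Median over the genes of each chromosome of the log2 CPM of a library minus the mean of the WT tumours (vertical axis), by chromosome (horizontal axis), each point 1 of the 4 day 30 tumour libraries of WT, het1, het2 or homo. Only genes with a mean of at least 5 CPM were taken, and the library's median over all of them was subtracted. The 4 homo libraries lie at 0.48 to 0.53 on chromosome 13, where the WT and het libraries lie at -0.04 to 0.08.

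Spread within the groups was small for most genes but large for a few. SDAD1, a nucleolar protein of ribosome assembly, stood at 23.4, 23.2, 21.8 and 108 CPM in WT and 27.7, 27.4, 108 and 78.9 CPM in homo tumours. It took a low or a high level in both groups and was not called (edgeR adjusted p = 0.653). In homo tumours SERPINA1 stood at 156, 360.3, 129.5 and 274 CPM, MUC5AC at 159, 408, 171 and 290.0 CPM and MUC12 at 23.2, 80.0, 24.8 and 44.3 CPM. Replicates 1 and 5 were higher than replicates 0 and 4 for each of these. PCOLCE, an enhancer of collagen maturation, stood at 29.7, 80.7, 33.2 and 52.3 CPM, all above the WT range of 1.25 to 2.01 CPM. In WT tumours, replicate 0 stood apart for liver-type genes: complement C4A was at 59.9, 16.4, 25.7 and 22.5 CPM, TF at 58.4, 21.2, 24.7 and 26.7 CPM, the cortisol carrier SERPINA6 at 53.5, 21.8, 24.4 and 27.3 CPM and SERPINA1 at 1140, 505, 561 and 601 CPM. The angiotensin receptor AGTR1 was at 30.9, 12.5, 21.1 and 19.9 CPM in WT tumours. C4A shares most of its sequence with C4B, so its reads could be split.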

How the data were processed

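RNA-seq read counts per gene were used as the authors deposited them, 1 table for cultured cells and 1 for day 30 tumours. The submitters' processing notes list HISAT2, HTSeq, bcl2fastq and, as build, hg38. Versions, annotation release and strand setting were not given in the sources used here; antisense and overlapping genes may thus share reads. Every column of the 2 tables belonged to a labelled sample, no row lacked a gene, and 0 columns were left out. The table of SAHA-treated tumours was not used. Of 58721 gene IDs, 58676 were matched to GENCODE 29 for symbols and positions.

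Counts were filtered with filterByExpr, scaled by TMM and tested with edgeR 4.0.16 (robust quasi-likelihood test, R 4.3.3) in all 16 day 30 tumour libraries, with Benjamini-Hochberg adjustment over all genes tested and a threshold of 0.05. Cultured cells were fitted alike (12 libraries), and the difference between tumours and culture in a joint model of 28 libraries on raw counts. SE is the absolute log2FC divided by the root of F. Ratios with 1 to 3 counts in a group carry 95% counting intervals, and a count of 0 is set to 3 counts per group; both cover counting error only.

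The named genes are EP300 and CREBBP, the 10 greatest rises and falls (at least 5 CPM, no overlap), the 6 greatest gains and losses in CPM, up to 4 members of each list with the smallest p, the 5 most extreme genes each way against culture and the het lines, and the 5 with the largest SD of log2 CPM in each group (at least 20 CPM). CDKN2A, NKX2-1, SCNN1A, AKR1C2, AKR1C3, TXNRD1, NQO1, GPX2, KRT8, KRT18, HNF4A, APOE, LAMA1, CD74, CIITA, CXCL5, CA9, ALDH1A1, ALDH1A2, HSPA5, MKI67, EGFR, ERBB3, NTRK3, KIT, AXIN2, COL1A1 and PECAM1 were named after their values were seen. The comparison and the 49 gene lists were chosen with earlier results of these data known. Genes of chromosome Y and XIST were left out, and some genes that the rule takes are not reported here.

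Alternatives were RLE scaling, DESeq2 1.42.0, other count filters, a 2-fold minimum, only the 8 libraries, the replicate number as a block, and leaving out each library. On simulated data of the same size (22073 genes), 50 genes were changed at each fold. Of these, 30% at 1.25-fold, 52% at 1.5-fold, 66% at 2-fold and 94% at 4-fold were recovered, and 5 of 126 calls were unchanged genes. Far fewer genes changed there than were called in the tumours, and the adjustment depends on that number. These shares thus do not carry over to the tumours. No 2 libraries were identical. Residuals of same-numbered tumour libraries correlated at -0.13 to -0.01 (3 pairs), against -0.11 to 0.15 for the 13 other pairs. The numbers thus show no sign of pairing, but so few pairs cannot exclude it.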

Additional observations from a re-analysis of the deposited data

Results flagged for a closer look

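In groups of 4 libraries, 1 library can stand apart from the others. Dixon's test at the 95% level was applied to the genes named above in each tumour group, 339 groups in all, and chance alone marks about 1 in 20 groups. The groups marked here made up a share close to that, and some genes had been named for their spread within a group. How often a library came up was not tested. Among the marked groups, replicate 0 of the WT tumours stood apart most often. It was high for TF at 58.4 CPM (others 21.2 to 26.7), SERPINA1 at 1140 CPM (others 505 to 601), EPHX1 at 529 CPM (others 433 to 442), CD44 at 835 CPM (others 742 to 753) and PFKFB3 at 276 CPM (others 216 to 219). It was low for CEACAM6 at 4981 CPM (others 6908 to 7294), OAS1 at 132 CPM (others 156 to 161), HDAC7 at 52.8 CPM (others 57.1 to 57.5) and NCOA3 at 165 CPM (others 170.4 to 171).

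WT replicate 4 was low for EP300 at 82.9 CPM (others 90.2 to 91.4) and high for SDAD1 at 107.7 CPM (others 21.8 to 23.4). WT replicate 2 was low for MSC at 10.4 CPM and high for DUSP4 at 427 CPM, and WT replicate 1 was low for IFIT2 at 9.08 CPM and high for POSTN at 3.96 CPM. Among homo tumours, replicate 1 was high for CREBBP at 109 CPM (others 95.4 to 96.7) and PPARGC1A at 4.43 CPM and low for KRT4 at 7.02 CPM (others 11.3 to 12.0). Homo replicate 0 was high for ZEB1 at 45.0 CPM and homo replicate 4 for PECAM1 at 1.35 CPM.

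The difference between homo and WT itself differed between tumours and culture in the joint edgeR model for 6957 genes with a greater and 4941 with a smaller log2FC in tumours (6197 and 5453 with RLE scaling, 6322 and 5678 with DESeq2, 5887 and 5089 with no filter). Among the most extreme genes, the fitted difference was 14.80 for CEACAM6, 12.98 for FGA, 12.90 for SCEL, 11.72 for ANXA13 and 11.38 for KRT4. It was -13.73 for SLC26A3, -13.23 for POSTN, -8.82 for BHLHE41 and -7.77 for AQP1. Where a group had nearly no counts, as for SCEL, ANXA13, POSTN, SLC26A3 and CEACAM6 in one line, the fitted size depends on the prior count.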

How the results depend on the processing

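With a 2-fold minimum besides the call, 2343 genes were raised and 2168 lowered in homo against WT tumours, 2313 and 2519 differed up and down between tumours and culture, and 1010 and 1354 lay above and below the het lines. Leaving out 1 library gave 5676 to 5916 raised and 5802 to 6060 lowered genes against WT, 6576 to 6873 and 4610 to 4987 for tumours against culture, 4143 to 5059 and 4595 to 5202 against the het lines, and 7328 to 7486 and 7378 to 7581 in culture. Over all lists it gave 268 to 276 raised and 367 to 377 lowered members, against 286 and 379. The median log2FC of chromosome 13 was 0.44 to 0.47 without 1 library and 0.38 with no filter on low counts. With the replicate number as a block, 5421 genes were raised and 5648 lowered against WT, and 10888 of the 12348 calls remained. Whether the numbers pair the samples is not known, and what a lost call there means was not tested. DESeq2 kept 99.4% and RLE scaling 99.7% of the calls, RLE shifted the median log2FC by less than 0.01, and no shared call changed sign under any setting tried. Among named genes, NQO1 gained a call without homo replicate 0 (edgeR adjusted p = 0.0441), POSTN gained one with only the 8 libraries (0.00951), and the block ended the calls of PTPRC (0.0699), PECAM1 (0.0509) and MKI67 (0.0885). With no filter on low counts MKI67 (0.0675), PECAM1 (0.0958) and SCEL (0.0718) were not called. A filter at a mean of 1 CPM, which leaves fewer genes to test, gave 4823 raised and 4998 lowered genes against WT and left 4 class II genes raised. The single lowered fibroblast, endothelial and raised muscle markers each dropped to 0 without 1 of several libraries, and 1 claudin and 1 lineage factor raised became 2 without homo replicate 1 and WT replicate 0. Genes with few counts, and lists of which few members were tested, are limited by depth.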
